A study of Mus musculus with 9 samples.

Results

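Autophagy and mitophagy genes were examined in cells given as HL-1, a mouse cardiac muscle cell line, by their symbols in the array annotation. Of 32 genes on the list, 30 had a transcript cluster (the probes grouped for 1 transcript) with that symbol alone, among 30050 genes measured in this way. Optn had no such cluster, Pink1 shared its only cluster with microRNA symbols, and neither was analysed. The 30 genes fell into 7 groups by role. The groups were initiation of autophagy (Ulk1, Ulk2, Atg13, Rb1cc1), nucleation of the membrane (Becn1, Pik3c3, Atg14, Uvrag), and its lipid supply and growth (Atg9a, Wipi1, Wipi2). They were also the LC3 and GABARAP proteins (Map1lc3a, Map1lc3b, Gabarap, Gabarapl1, Gabarapl2) and their conjugation (Atg3, Atg4b, Atg5, Atg7, Atg10, Atg12, Atg16l1). Cargo receptors (Sqstm1, Nbr1, Calcoco1, Tax1bp1) and receptors on mitochondria (Bnip3, Bnip3l, Fundc1) completed the list.

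Total RNA was hybridised to 9 arrays, 3 for each of 3 groups. DOX_IFNg cells received 0.3 µM doxorubicin, an anthracycline cancer drug with known toxicity to the heart, together with 20 ng/ml interferon gamma, an inflammatory cytokine. DOX cells received 0.3 µM doxorubicin, and Con cells received phosphate-buffered saline. All groups were grown in medium with fetal bovine serum, and the labels name no further genetic change in this single immortalised line. The labels state neither the duration of treatment nor whether the arrays of a group came from separate dishes, so p-values cover the spread among the arrays at hand, and that spread may be technical only. A group given interferon gamma alone was not analysed here.

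Autophagy encloses cytoplasm and organelles in a double membrane, the autophagosome, and delivers them to the lysosome. The Ulk kinase complex starts the process and the Becn1 and Pik3c3 lipid kinase complex marks the growing membrane. LC3 and GABARAP proteins are then attached to lipid by a ubiquitin-like conjugation system and hold cargo receptors such as Sqstm1. In heart muscle, which depends on its mitochondria, mitophagy removes damaged mitochondria through receptors on their outer membrane.

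Upstream sequences are shown for the 5 called genes with the largest differences between DOX and Con cells, as the stretch in which motifs of the transcription factors known for autophagy and stress genes were searched. Each run holds the 250 bases before the RefSeq gene start on the gene's own strand, in assembly GRCm38.p6, written 5′ to 3′, and capitals mark the E-box CACGTG, bound by Tfeb and Tfe3 among other factors.
Sqstm1, chr11:50210821-50211070, minus strand: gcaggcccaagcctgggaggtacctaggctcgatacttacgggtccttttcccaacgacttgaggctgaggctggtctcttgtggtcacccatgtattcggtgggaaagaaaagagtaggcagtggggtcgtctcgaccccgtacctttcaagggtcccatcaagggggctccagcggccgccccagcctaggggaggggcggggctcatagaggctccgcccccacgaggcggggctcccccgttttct
Atg3, chr16:45158579-45158828, plus strand: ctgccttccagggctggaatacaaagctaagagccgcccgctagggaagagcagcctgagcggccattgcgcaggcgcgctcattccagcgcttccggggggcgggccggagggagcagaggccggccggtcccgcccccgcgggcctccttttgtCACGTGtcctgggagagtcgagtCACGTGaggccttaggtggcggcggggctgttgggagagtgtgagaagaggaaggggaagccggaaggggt
Uvrag, chr7:99141145-99141394, minus strand: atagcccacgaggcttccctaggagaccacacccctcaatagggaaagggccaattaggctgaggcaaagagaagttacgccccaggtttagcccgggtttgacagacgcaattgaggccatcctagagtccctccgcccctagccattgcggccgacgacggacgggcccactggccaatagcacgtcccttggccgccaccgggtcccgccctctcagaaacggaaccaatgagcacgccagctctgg
Gabarapl1, chr6:129532942-129533191, plus strand: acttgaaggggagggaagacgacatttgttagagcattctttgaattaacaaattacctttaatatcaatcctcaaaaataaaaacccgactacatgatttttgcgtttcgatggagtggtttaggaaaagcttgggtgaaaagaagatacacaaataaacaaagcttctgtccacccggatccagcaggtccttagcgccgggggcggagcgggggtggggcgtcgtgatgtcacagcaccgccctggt
Bnip3, chr7:138909507-138909756, minus strand: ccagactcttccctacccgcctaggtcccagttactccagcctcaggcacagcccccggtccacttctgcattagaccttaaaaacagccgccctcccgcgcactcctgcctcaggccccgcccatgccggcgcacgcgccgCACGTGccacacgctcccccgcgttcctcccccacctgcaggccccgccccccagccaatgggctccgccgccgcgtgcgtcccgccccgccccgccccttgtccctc

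The E-box reads the same on both strands and was present in 5 of the 25 listed genes with a promoter window (250 bases before and 50 after the start) and in 7.15% of all 32851 windows of this length. The carriers were Atg3, with 2 copies, Bnip3, Atg7, Atg5 and Atg14. The longer form GTCACGTG, which contains the E-box, was found on either strand in Atg3, Atg7 and Atg14, against 2.25% of all windows. The stretches of 30 bases around the E-box of the remaining carriers are given with the same use of capitals.
Atg14, chr14:47568418-47568447, minus strand: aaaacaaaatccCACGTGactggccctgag
Atg5, chr10:44268313-44268342, plus strand: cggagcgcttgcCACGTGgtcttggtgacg
Atg7, chr6:114670952-114670981, plus strand: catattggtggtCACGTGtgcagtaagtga

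The antioxidant response element core TGACNNNGC, bound by Nrf2, occurred on either strand in 4 of the 25 windows (Atg13, Map1lc3b, Tax1bp1 and Ulk2) and in 12.4% of all windows. The ATF4 element core TGATGNAA and the AP-1 site TGACTCA, searched on both strands, occurred in 0 of the 25 windows, against 3.97% and 5.2% of all windows. An AP-1 site followed by GC would also count under the antioxidant response element. These are matches of letters within a short window. A missing match says only that the letters are not in it.

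Some facts about the arrays bear on all results. Arrays are numbered by the labels' replicate numbers. Any pair drawn from DOX_IFNg 1, DOX_IFNg 2, all of DOX and Con 1 shared 82 to 186 identical values, whereas all other pairs shared 1 to 17. The 9 arrays were therefore treated as a larger set of 6 and a smaller set of 3 (DOX_IFNg 3, Con 2 and Con 3), and results are also given within these sets. All 6 arrays of the larger set had the same highest value, 19.9315. In the smaller set the highest values were 19.9262 (DOX_IFNg 3), 19.9079 (Con 2) and 19.8161 (Con 3). Whether a common ceiling gave the identical values was not tested. The smaller set held no DOX array and the larger set held 1 Con array. Of 9 cardiomyocyte markers measured, Tnnt2 and Nkx2-5 lay above 4.71, the 95th percentile of 1523 olfactory and vomeronasal receptor genes taken as a limit for dim probes. Myh6, Nppa, Myl7 and Gata4 lay under it. Most of these markers thus did not bear out the cardiac identity given for the cells. Of 5 fibroblast markers measured, 3 lay above the limit, among them Col1a1 with a Con mean of 17.80, whereas Dcn and Lum lay under it. The identity of the cells was not tested. The mean log2 value of the cardiomyocyte markers was 4.56 to 4.62 on DOX_IFNg arrays, 4.57 to 4.62 on DOX arrays and 4.69 to 4.73 on Con arrays. Most of that gap came from Tnnt2, with means of 6.52 in DOX_IFNg, 6.70 in DOX and 7.94 in Con, while 7 of the 9 markers had a positive difference in DOX_IFNg minus Con (median 0.05) and 5 of 9 in DOX minus Con (median 0.01). Fibroblast markers, of which Col1a1, Col1a2 and Col3a1 lay above the limit, averaged 9.15 to 9.20 in DOX_IFNg, 9.18 to 9.20 in DOX and 9.99 to 10.14 in Con. Skeletal muscle markers (Myod1 and Myog above the limit) averaged 4.82 to 4.91 in DOX_IFNg, 4.88 to 5.09 in DOX and 5.59 to 5.65 in Con, but the members differed in direction. Myog had means of 4.61 in DOX_IFNg, 4.76 in DOX and 8.18 in Con, whereas Myod1 had 6.33, 6.78 and 6.03 in the same groups. Des had 4.56, 4.70 and 4.40 and Myf5 had 3.93, 3.78 and 3.89, both under the limit. All 4 endothelial markers lay under the limit, as did 3 of 4 immune markers, with Cd14 above it. The part of these markers in the autophagy results was not tested. On such arrays, fewer cells of a type and less RNA per cell cannot be told apart.

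In both comparisons with Con, autophagy genes were higher or did not pass the test, and none was called lower. In DOX minus Con, 14 of 30 genes rose and 16 were not called, where called means an adjusted p under 0.05. Of all genes, 15.6% were called in this comparison, 8.06% as higher and 7.53% as lower. In DOX_IFNg minus Con, 14 of 30 genes rose and 16 were not called, against 17.4% of all genes called, 8.01% as higher and 9.41% as lower. These shares include genes under the limit for dim probes. With dim genes left out of the fit, 39.5% of 12024 genes were called in DOX minus Con (2441 higher, 2306 lower). In DOX_IFNg minus Con, 43.8% were called (2358 higher, 2905 lower). Of the 27 autophagy genes above the limit, 14 were called in each comparison in the fit to all genes, all as higher. The median log2 difference of the 30 genes was 0.32 in DOX_IFNg minus Con and 0.28 in DOX minus Con, whereas that of all genes was −0.02 and −0.01 in the same comparisons. Both comparisons use the same Con arrays, so their results are not separate evidence. Quantile normalization changed the balance among all called genes, with 61.7% of calls higher in DOX minus Con against 51.7% as deposited, and 57.5% against 46.0% in DOX_IFNg minus Con. The counts of rising autophagy genes were then 16 and 16, with 0 falling. Of all 30050 genes, 3069 rose in DOX minus Con and 3075 in DOX_IFNg minus Con under that setting.

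**Figure D1:**
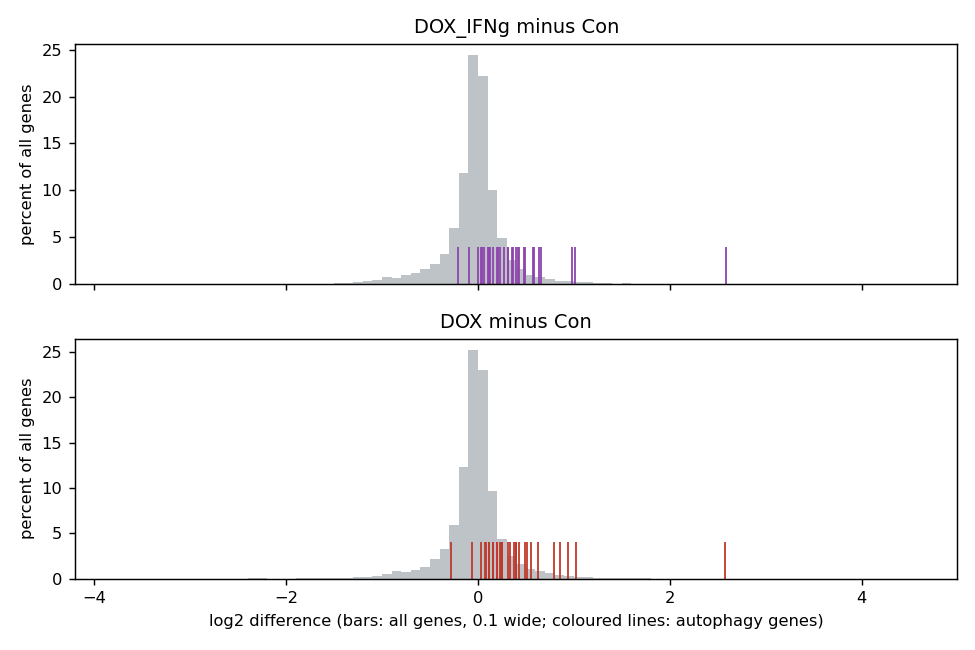
Log2 differences of the 30 autophagy genes (coloured lines) over the distribution of all 30050 genes (grey bars, percent of genes per 0.1 on the log2 scale) for DOX_IFNg minus Con (top) and DOX minus Con (bottom). The lone line at the right is Sqstm1, at 2.59 in DOX_IFNg minus Con and 2.57 in DOX minus Con, and most other lines lie to the right of the median of all genes.

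Most of these differences were under 1.5-fold. The 90th percentile of all genes was 0.26 in each comparison with Con. It was exceeded by 17 of the 30 genes in DOX_IFNg minus Con and by 15 in DOX minus Con. All 3 arrays of the treated group lay above all 3 Con arrays in 20 of 30 genes for DOX_IFNg, against 14.5% of all genes, and in 22 of 30 for DOX, against 15.7% of all genes. Fundc1 was the 1 gene whose DOX arrays all lay below Con, against 17.2% of all genes, and 0 genes did so for DOX_IFNg, against 18.5%. The percentile and these shares include dim genes and were not computed for genes above the limit alone. Of the called genes, 4 in DOX_IFNg minus Con and 6 in DOX minus Con differed by more than 1.5-fold. Among all genes, 2170 of 5234 called and 1890 of 4687 called did so in the same comparisons. Within the larger array set, where Con was a single array that is assumed to vary like the treated groups, 4 of the 30 genes were called in DOX_IFNg minus Con, against 7.43% of all genes, and 8 in DOX minus Con, against 8.18% of all genes. Within the smaller set, an alternative added after the data were seen in which DOX_IFNg was a single array, limma called 0 of the 30 genes and 0 of all genes in DOX_IFNg minus Con. At an unadjusted p under 0.05, 13 of the 30 genes and 13.4% of all genes passed there.

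**Figure D2:**
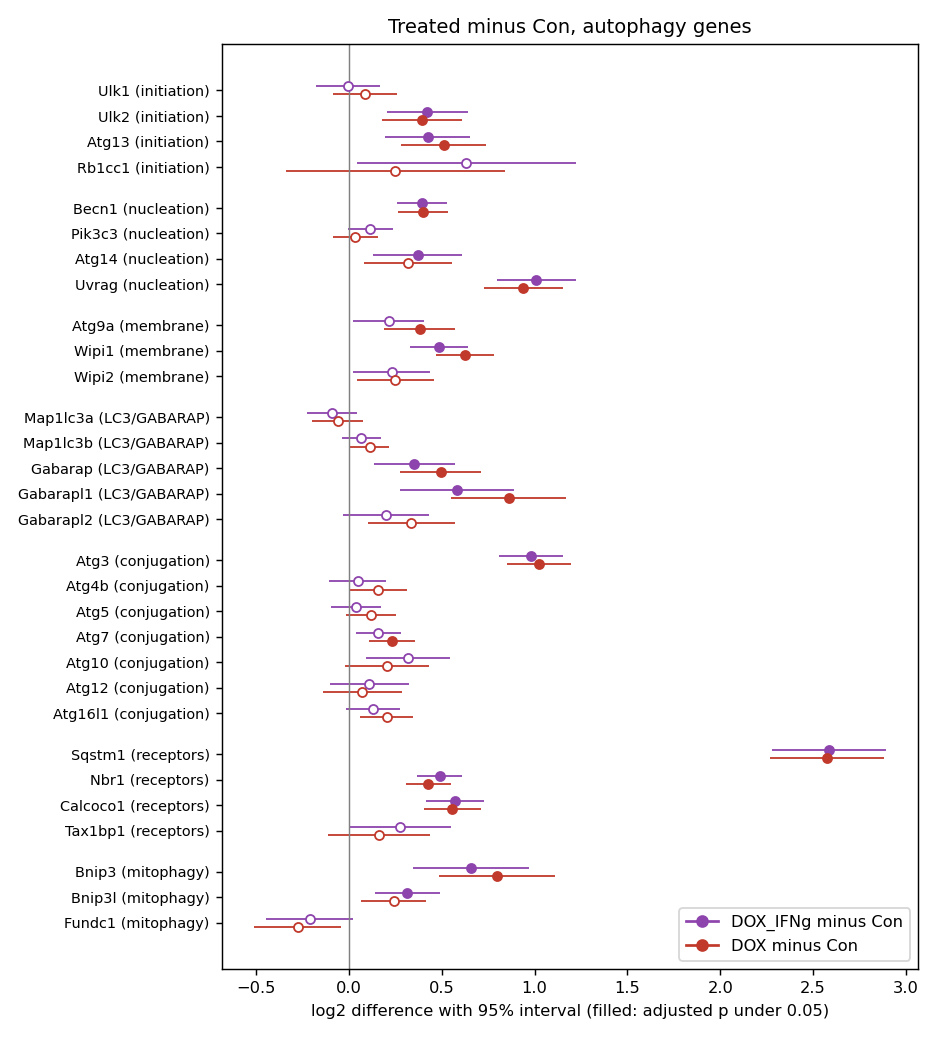
Log2 differences with 95% intervals of the 30 genes by role, DOX_IFNg minus Con (purple, upper point of each pair) and DOX minus Con (red, lower point). Filled points had an adjusted p under 0.05: 14 in each comparison, all to the right of 0.

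Cargo receptors held the largest change. Sqstm1 encodes p62, which binds ubiquitinated cargo and LC3, is itself degraded by autophagy, and takes part in the antioxidant response through Keap1. Its log2 values were 8.64, 9.04 and 8.88 on DOX_IFNg arrays, 8.77, 9.04 and 8.72 on DOX arrays, and 6.21, 6.12 and 6.48 on Con arrays. The treated groups overlapped with each other and lay far above Con. Sqstm1 rose by 2.59 (SE 0.13, 6.00-fold, adjusted p = 1.15e-05) in DOX_IFNg minus Con and by 2.57 (SE 0.13, 5.96-fold, adjusted p = 1.35e-05) in DOX minus Con. These differences ranked 13 in DOX_IFNg minus Con and 12 in DOX minus Con among the rises of all 30050 genes. In DOX_IFNg minus Con, the difference was 2.58 within the smaller array set and 2.63 within the larger. The upstream run printed for Sqstm1 held none of the motifs searched.

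The remaining receptors moved less. Calcoco1, described as a receptor for endoplasmic reticulum and Golgi membranes, had log2 values of 6.31, 6.40 and 6.42 in DOX_IFNg, 6.42, 6.43 and 6.22 in DOX, and 5.80, 5.76 and 5.84 in Con. No treated array reached down to the Con values. The gene rose by 0.57 in DOX_IFNg minus Con (SE 0.07, adjusted p = 0.000631) and by 0.56 in DOX minus Con (SE 0.07, adjusted p = 0.000768). Nbr1, a receptor that cooperates with p62 on ubiquitinated cargo, rose by 0.49 (adjusted p = 0.000393) and by 0.43 (adjusted p = 0.000828) in the same comparisons, with log2 values of 5.76 to 5.81 in DOX_IFNg, 5.67 to 5.76 in DOX and 5.21 to 5.34 in Con. Tax1bp1, another ubiquitin-binding receptor, was not called, at 0.27 (adjusted p = 0.175) in DOX_IFNg minus Con and 0.16 (adjusted p = 0.469) in DOX minus Con. Its Con arrays were spread from 6.10 to 6.54 and overlapped with both treated groups. In all, 3 of 4 receptors rose in each comparison. Calcoco1 was not called within the larger set alone in DOX_IFNg minus Con (adjusted p = 0.0545).

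**Figure D3:**
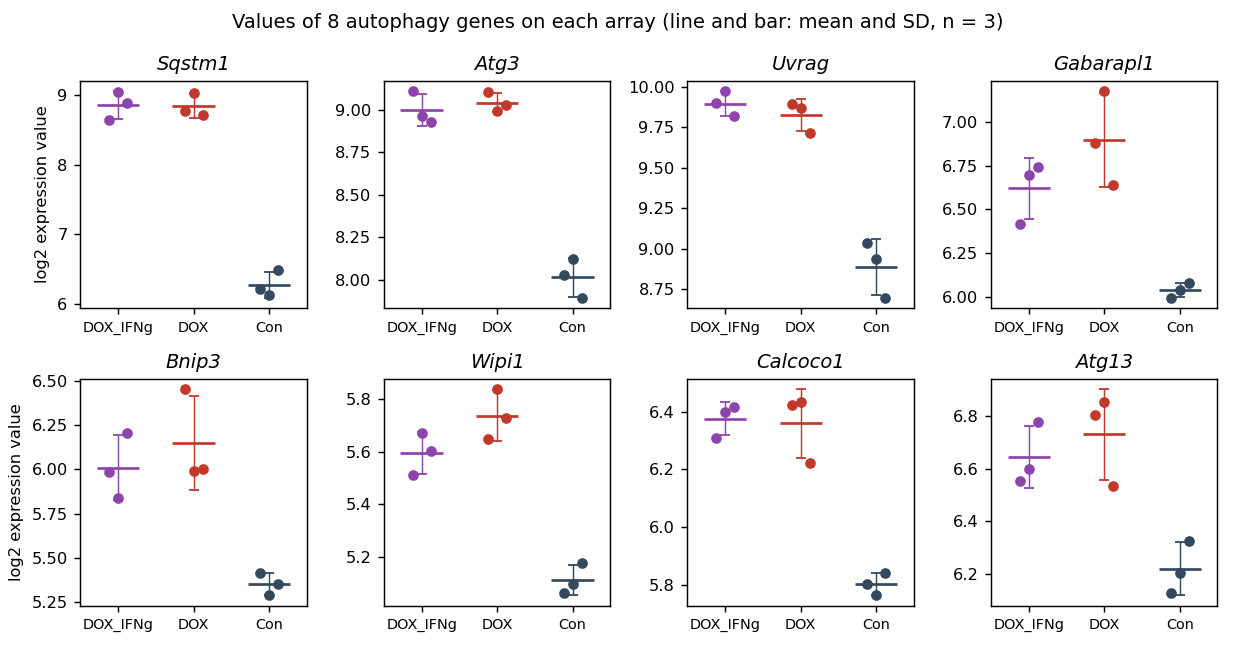
Log2 values of 8 genes on each array (points), with the mean and SD of each group (n = 3), for DOX_IFNg, DOX and Con from left to right. In every panel the treated arrays lie above the Con arrays, and the treated groups overlap with each other.

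Among receptors on the mitochondrial outer membrane, Bnip3 showed the largest difference. It encodes a BH3-only protein that binds LC3 and is induced by low oxygen. Its log2 values were 5.99, 5.84 and 6.20 in DOX_IFNg, 6.45, 5.99 and 6.00 in DOX, and 5.41, 5.29 and 5.35 in Con. DOX 1 was the highest array, and every treated array exceeded every Con array. Bnip3 rose by 0.66 in DOX_IFNg minus Con (SE 0.14, adjusted p = 0.0111) and by 0.80 in DOX minus Con (SE 0.14, adjusted p = 0.00458). Its upstream run, printed with the E-box in capitals, held 1 copy of that motif. Within the larger array set Bnip3 was not called in either comparison (adjusted p = 0.271 in DOX_IFNg minus Con and 0.103 in DOX minus Con).

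Bnip3l, the close relative known for clearing mitochondria from maturing red blood cells, rose by 0.31 in DOX_IFNg minus Con (adjusted p = 0.0237) and differed by 0.24 in DOX minus Con without passing the test (adjusted p = 0.0718). Its log2 values were 7.03 to 7.05 in DOX_IFNg, 6.93 to 7.02 in DOX and 6.56 to 6.86 in Con. The annotation gives its cluster 2 gene identifiers, so signal of a near-identical copy may contribute and the value is uncertain. The DOX_IFNg minus Con call of Bnip3l ended on removal of Con 2 or any single DOX_IFNg array (largest adjusted p 0.0729), and in DOX minus Con it was called after removal of Con 1 (0.31, adjusted p = 0.0311). Fundc1, a receptor tied to low oxygen, lay on the other side of 0, at −0.21 in DOX_IFNg minus Con (adjusted p = 0.219) and −0.28 in DOX minus Con (adjusted p = 0.115). Its mean level was under the limit for dim probes, and among the alternatives run it was called lower in DOX minus Con only when Con 3 was left out (−0.36, adjusted p = 0.0495).

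Within the LC3 and GABARAP family, the changes called were on the GABARAP side. Gabarapl1 had log2 values of 6.42, 6.70 and 6.74 in DOX_IFNg, 6.88, 7.18 and 6.64 in DOX, and 6.00, 6.04 and 6.08 in Con. The treated arrays were spread more widely than the Con arrays and lay above all of them. Gabarapl1 rose by 0.58 in DOX_IFNg minus Con (SE 0.13, adjusted p = 0.0187) and by 0.86 in DOX minus Con (SE 0.13, adjusted p = 0.00291). Gabarap had 7.78, 7.88 and 8.10 in DOX_IFNg, 8.06, 8.17 and 7.96 in DOX, and 7.47, 7.57 and 7.67 in Con, again with every treated array above Con. It rose by 0.35 in DOX_IFNg minus Con (SE 0.10, adjusted p = 0.0366) and by 0.49 in DOX minus Con (SE 0.10, adjusted p = 0.00836).

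Gabarapl2 had 5.91, 5.98 and 6.33 in DOX_IFNg, 6.19, 6.21 and 6.23 in DOX, and 5.81, 5.88 and 5.94 in Con. DOX arrays were tightly grouped above Con, whereas DOX_IFNg 1 fell among the Con arrays. The gene was not called, at 0.20 (adjusted p = 0.247) in DOX_IFNg minus Con and 0.33 (adjusted p = 0.0622) in DOX minus Con. Both LC3 genes measured were dim. Map1lc3b, whose product is the usual protein marker of autophagosomes, had 4.15, 4.14 and 4.17 in DOX_IFNg, 4.22, 4.23 and 4.14 in DOX, and 4.11, 4.09 and 4.07 in Con. All of its values lay under the limit of 4.71, so its small differences of 0.07 in DOX_IFNg minus Con (adjusted p = 0.421) and 0.11 in DOX minus Con (adjusted p = 0.162) may understate a change. Map1lc3a, the second LC3 gene measured, had 4.31, 4.46 and 4.31 in DOX_IFNg, 4.40, 4.43 and 4.34 in DOX, and 4.38, 4.48 and 4.49 in Con, with differences of −0.09 in DOX_IFNg minus Con (adjusted p = 0.374) and −0.06 in DOX minus Con (adjusted p = 0.604). Its groups overlapped under the same limit.

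In DOX_IFNg minus Con, the calls of Gabarapl1 and Gabarap depended on single arrays. Both ended on removal of Con 1, Con 2, DOX_IFNg 2 or DOX_IFNg 3, with largest adjusted p 0.0688 for Gabarapl1 and 0.103 for Gabarap. The Gabarap call also ended on removal of DOX 1. In DOX minus Con, Gabarapl1 was not called within the larger array set (adjusted p = 0.0771). Gabarapl2 passed the test in DOX minus Con without DOX_IFNg 1 (adjusted p = 0.0464) or DOX_IFNg 3 (adjusted p = 0.00512), whose values enter the shared estimate of the spread. Within the larger set its DOX minus Con difference was 0.40 (adjusted p = 0.0309), a value that rests on 1 Con array.

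Of the 7 conjugation genes, Atg3 stood out. Its product is the E2-like enzyme that passes LC3 and GABARAP proteins to phosphatidylethanolamine. Atg3 had log2 values of 9.11, 8.96 and 8.93 in DOX_IFNg, 9.10, 8.99 and 9.02 in DOX, and 8.03, 8.12 and 7.90 in Con. The treated groups overlapped and were separated from Con by more than the spread of any group. Atg3 rose by 0.98 in DOX_IFNg minus Con (SE 0.07, 1.97-fold, adjusted p = 6.28e-05) and by 1.02 in DOX minus Con (SE 0.07, 2.03-fold, adjusted p = 5.32e-05). Its upstream run was the only one of the 5 printed with 2 E-boxes, starting at positions −94 and −71 relative to the gene start.

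Atg7, the E1-like enzyme that acts before Atg3, rose by 0.23 in DOX minus Con (adjusted p = 0.0200) and was not called in DOX_IFNg minus Con (0.16, adjusted p = 0.0822). It had log2 values of 5.07 to 5.18 in DOX_IFNg, 5.15 to 5.26 in DOX and 4.98 to 5.01 in Con. The DOX minus Con call of Atg7 ended on removal of Con 1, Con 2, DOX 2 or DOX 3 (largest adjusted p 0.0761). The other conjugation genes were not called in either comparison. Atg5, Atg12 and Atg16l1, which form the complex that guides Atg3 to the membrane, differed by 0.04, 0.11 and 0.13 in DOX_IFNg minus Con and by 0.12, 0.07 and 0.20 in DOX minus Con. Atg10, the E2-like enzyme for Atg12, differed by 0.32 in DOX_IFNg minus Con (adjusted p = 0.0628) and by 0.20 in DOX minus Con (adjusted p = 0.235), and the protease Atg4b by 0.05 in DOX_IFNg minus Con (adjusted p = 0.731) and by 0.16 in DOX minus Con (adjusted p = 0.172). Atg10 was called in DOX_IFNg minus Con without DOX_IFNg 2 (0.42, adjusted p = 0.0198). Conjugation held 1 call among 7 in DOX_IFNg minus Con, beside 17.4% of all genes and 43.8% of those above the limit for dim probes. In DOX minus Con it held 2 among 7, beside 15.6% and 39.5%. Carriers of the E-box were found both among genes that rose in DOX minus Con (Atg3, Atg7, Bnip3) and among genes that were not called there (Atg5, Atg14).

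In the initiation complex, Ulk2 and Atg13 rose and Ulk1 and Rb1cc1 were not called. Atg13, the subunit that links the Ulk kinases to Rb1cc1, had 6.55, 6.60 and 6.78 in DOX_IFNg, 6.80, 6.85 and 6.53 in DOX, and 6.13, 6.20 and 6.33 in Con. All treated arrays lay above Con. Atg13 rose by 0.42 in DOX_IFNg minus Con (SE 0.10, adjusted p = 0.0205) and by 0.51 in DOX minus Con (SE 0.10, adjusted p = 0.00899). The kinase gene Ulk2 rose by 0.42 in DOX_IFNg minus Con (adjusted p = 0.0163) and by 0.39 in DOX minus Con (adjusted p = 0.0240), with log2 values of 6.08 to 6.37 in DOX_IFNg, 6.14 to 6.20 in DOX and 5.60 to 5.86 in Con. Its relative Ulk1 differed by −0.00 in DOX_IFNg minus Con (95% interval −0.18 to 0.17) and by 0.09 in DOX minus Con (95% interval −0.08 to 0.26). Rb1cc1, which encodes the scaffold Fip200, was the most variable of the 30 genes. It had 7.04, 6.56 and 6.11 in DOX_IFNg, 6.21, 5.99 and 6.37 in DOX, and 6.26, 6.06 and 5.49 in Con, so that all groups overlapped. Its differences were 0.63 in DOX_IFNg minus Con (adjusted p = 0.143) and 0.25 in DOX minus Con (adjusted p = 0.618).

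Some initiation calls hung on single arrays. The Ulk2 call in DOX minus Con ended on removal of Con 3 or any single DOX array (largest adjusted p 0.0833). The Atg13 call in DOX_IFNg minus Con ended on removal of Con 1, Con 2, DOX_IFNg 2 or DOX_IFNg 3 (largest adjusted p 0.0647), and in DOX minus Con Atg13 was not called within the larger array set (adjusted p = 0.0637).

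Nucleation genes encode subunits of the lipid kinase complexes built on Pik3c3. Uvrag, the subunit of the complex that acts in autophagosome maturation and endosomal traffic, had 9.90, 9.97 and 9.82 in DOX_IFNg, 9.89, 9.87 and 9.71 in DOX, and 9.03, 8.93 and 8.70 in Con. The treated groups overlapped well above Con. Uvrag rose by 1.01 in DOX_IFNg minus Con (SE 0.09, 2.01-fold, adjusted p = 0.000172) and by 0.94 in DOX minus Con (SE 0.09, 1.92-fold, adjusted p = 0.000266). A second and dimmer Uvrag cluster was measured, and averaging both gave 0.51 in DOX_IFNg minus Con and 0.49 in DOX minus Con, still called. The second cluster thus rose less than the first, if at all, and was not tested by itself. Becn1, the regulatory subunit that binds Bcl2, rose by 0.39 in DOX_IFNg minus Con (adjusted p = 0.00209) and by 0.40 in DOX minus Con (adjusted p = 0.00207), with 6.86 to 6.88 in DOX_IFNg, 6.78 to 6.97 in DOX and 6.44 to 6.52 in Con. Atg14, which directs the kinase to sites of autophagosome formation, rose by 0.37 in DOX_IFNg minus Con (adjusted p = 0.0427) and was not called in DOX minus Con (0.32, adjusted p = 0.0815). The catalytic subunit gene Pik3c3 differed by 0.11 in DOX_IFNg minus Con (95% interval −0.01 to 0.24) and by 0.03 in DOX minus Con (95% interval −0.09 to 0.16), with neither called.

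The Atg14 call ended on removal of any single Con array, of DOX 1 or 3, or of DOX_IFNg 2 or 3 (largest adjusted p 0.106), and in DOX minus Con Atg14 was called after removal of DOX_IFNg 2 (adjusted p = 0.0281). Becn1 was not called within the larger array set in either comparison (adjusted p = 0.109 in DOX_IFNg minus Con and 0.0908 in DOX minus Con).

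Among the genes of lipid supply and membrane growth, Wipi1 changed most. Its product binds the lipid made by Pik3c3. Wipi1 had 5.51, 5.67 and 5.60 in DOX_IFNg, 5.65, 5.84 and 5.73 in DOX, and 5.06, 5.10 and 5.18 in Con. Both treated groups were clear of Con. The gene rose by 0.48 in DOX_IFNg minus Con (SE 0.07, adjusted p = 0.00153) and by 0.63 in DOX minus Con (SE 0.07, adjusted p = 0.000433). Wipi2, the paralog that recruits Atg16l1, was not called, at 0.23 in DOX_IFNg minus Con (adjusted p = 0.134) and 0.25 in DOX minus Con (adjusted p = 0.110). Atg9a, a lipid scramblase on vesicles that seed the membrane, rose by 0.38 in DOX minus Con (adjusted p = 0.0150) and differed by 0.21 in DOX_IFNg minus Con without passing the test (adjusted p = 0.126). Its call ended on removal of Con 1, DOX 1 or DOX 2 (largest adjusted p 0.0557). Wipi1 was not called in DOX_IFNg minus Con within the larger array set (adjusted p = 0.0589).

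Adding interferon gamma to doxorubicin gave no called difference in any of the 30 genes. In DOX_IFNg minus DOX, limma called 0 of 30 genes and 0 of all 30050 genes, which is 0% of the genes tested. At an unadjusted p under 0.05, 0 of the 30 genes and 1503 of all genes passed. Of the 30 differences, 13 were positive and 17 negative, with a median of −0.03 beside −0.01 for all genes. The range ran from −0.28 for Gabarapl1 (95% interval −0.59 to 0.03) to 0.38 for Rb1cc1 (95% interval −0.21 to 0.97). All DOX_IFNg arrays lay above all DOX arrays in 3 genes (Pik3c3, Nbr1 and Bnip3l), at 0.08, 0.06 and 0.07, against 4.56% of all genes, and below them in 0, against 6.69% of all genes. These 3 were named after their values were seen.

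The intervals set how large a difference could have gone unseen. For Sqstm1, the DOX_IFNg minus DOX difference was 0.01, with a 95% interval from −0.30 to 0.32, and for Atg3 it was −0.04, from −0.21 to 0.13. DOX_IFNg 1 was the lowest array of its group in 17 of 30 genes, against 38.6% of all genes. In the DOX group, DOX 3 was the lowest in 16 of 30 genes, against 35.6% of all genes.

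**Figure D4:**
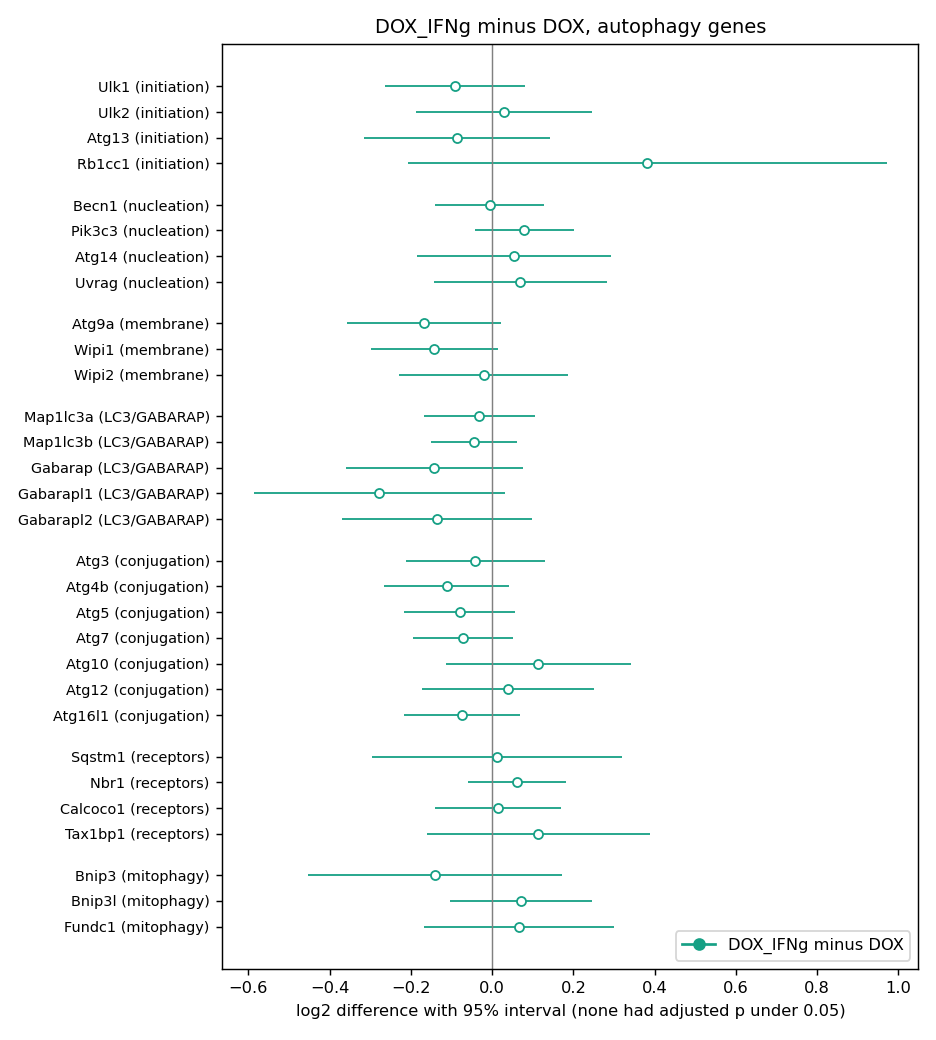
Log2 differences with 95% intervals in DOX_IFNg minus DOX for the 30 genes by role. All points are open, since none had an adjusted p under 0.05, and they lie between −0.28 and 0.38.

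A further 79 autophagy genes outside the list of 30 were counted in the same way. Of these, 31 rose and 5 fell in DOX_IFNg minus Con, and 30 rose and 5 fell in DOX minus Con, whereas none was called in DOX_IFNg minus DOX (2 at an unadjusted p under 0.05). Of all genes, 8.01% were called higher and 9.41% lower in DOX_IFNg minus Con, and 8.06% higher and 7.53% lower in DOX minus Con, which is also the background for the groups that follow. The median log2 difference of the 79 genes was 0.17 in DOX_IFNg minus Con and 0.18 in DOX minus Con, beside −0.02 and −0.01 for all genes. Among all genes above the limit for dim probes, 43.8% were called in either direction in DOX_IFNg minus Con and 39.5% in DOX minus Con.

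Of 15 further core genes, 7 rose in each comparison, and 0 fell in DOX_IFNg minus Con and 1 in DOX minus Con. Atg9b, a paralog of Atg9a, rose by 0.79 in DOX_IFNg minus Con (adjusted p = 0.000248) and by 0.70 in DOX minus Con (adjusted p = 5e-04). Ambra1, a partner of Becn1, rose by 0.34 in DOX_IFNg minus Con (adjusted p = 0.0369) and by 0.44 in DOX minus Con (adjusted p = 0.0129), and Wdr45, a relative of the Wipi genes, by 0.33 in DOX_IFNg minus Con (adjusted p = 0.00188) and by 0.39 in DOX minus Con (adjusted p = 0.000874). The gene that fell in DOX minus Con was Atg4c, a protease of the Atg4b family, at −0.36 (adjusted p = 0.0442), named after its value was seen. That call ended on removal of 8 of the 9 arrays in turn, all except Con 3 (largest adjusted p 0.136). Without Con 3, Atg4c was also called lower in DOX_IFNg minus Con (−0.44, adjusted p = 0.00856). The Ambra1 calls ended on removal of DOX 1 or 2 in DOX minus Con (largest adjusted p 0.0551), and of any array other than DOX 2 and 3 and DOX_IFNg 1 in DOX_IFNg minus Con (largest adjusted p 0.117).

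Genes for the fusion of autophagosomes with lysosomes included some of the larger rises. Of 14 measured, 6 rose and 1 fell in each comparison. Rab7, the GTPase of late endosomes and lysosomes, had mean log2 values of 12.80 ± 0.05 in DOX_IFNg, 12.81 ± 0.15 in DOX and 11.73 ± 0.20 in Con (SD, n = 3 each). It rose by 1.07 (adjusted p = 0.000305) in DOX_IFNg minus Con and by 1.08 (adjusted p = 0.000297) in DOX minus Con. Vps11, Vps16, Vps18, Vps33a, Vps39 and Vps41 encode the tethering complex HOPS, which acts with Rab7, and did not move as one. Vps11 rose by 1.04 in DOX_IFNg minus Con (adjusted p = 0.000683) and by 1.23 in DOX minus Con (adjusted p = 0.000302), Vps39 by 0.51 in DOX_IFNg minus Con (adjusted p = 0.00669) and by 0.58 in DOX minus Con (adjusted p = 0.00350), and Vps41 by 0.62 in DOX_IFNg minus Con (adjusted p = 0.0183) and by 0.57 in DOX minus Con (adjusted p = 0.0293). The remaining subunits were named after their values were seen. Vps16 rose by 0.25 in DOX_IFNg minus Con (adjusted p = 0.0108) and by 0.23 in DOX minus Con (adjusted p = 0.0175), and its DOX minus Con call ended on removal of Con 2, DOX 1 or DOX 2 (largest adjusted p 0.0617). Vps18 lay at −0.07 in DOX_IFNg minus Con (adjusted p = 0.414) and −0.03 in DOX minus Con (adjusted p = 0.822). Its mean level was under the limit for dim probes, so a change may be understated. Vps33a, above that limit, lay at 0.10 (adjusted p = 0.526) and 0.19 (adjusted p = 0.201) in the same comparisons. Neither gene was called. The fusion protein Ykt6, a SNARE named after its values were seen, fell by 0.60 in DOX_IFNg minus Con (adjusted p = 0.00576) and by 0.47 in DOX minus Con (adjusted p = 0.0201). The DOX minus Con calls of Vps41 and Ykt6 each ended on removal of Con 2, Con 3, DOX 1 or DOX 2, and that of Vps41 also on removal of DOX 3 (largest adjusted p 0.102). In DOX_IFNg minus Con, the Vps41 call ended on removal of Con 2 or DOX_IFNg 1 or 2 (largest adjusted p 0.0674).

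Further mitophagy genes showed 6 of 15 higher and 1 lower in DOX_IFNg minus Con, and 5 higher and 1 lower in DOX minus Con. Usp15, an enzyme that removes ubiquitin from proteins and opposes mitophagy, rose by 1.05 in DOX_IFNg minus Con (adjusted p = 0.0132) and by 0.86 in DOX minus Con (adjusted p = 0.0345), with a wide spread in Con (7.21 ± 0.46, SD, n = 3). Usp8, another deubiquitinase, which also acts in endosomal sorting, rose by 0.55 in DOX_IFNg minus Con (adjusted p = 0.00156) and by 0.43 in DOX minus Con (adjusted p = 0.00584). Tbk1, the kinase that phosphorylates cargo receptors, rose by 0.55 in DOX_IFNg minus Con (adjusted p = 0.00118) and by 0.35 in DOX minus Con (adjusted p = 0.0130). Gbas, a mitochondrial protein related to Nipsnap1, rose by 0.33 in DOX_IFNg minus Con (adjusted p = 0.0447) and by 0.38 in DOX minus Con (adjusted p = 0.0253). Usp30, a deubiquitinase on mitochondria, rose by 0.24 in DOX_IFNg minus Con (adjusted p = 0.0444) and was not called in DOX minus Con (0.24, adjusted p = 0.0505). Gbas and Usp30 were named after their values were seen. Vdac1, a channel of the mitochondrial outer membrane, fell by 0.57 in DOX_IFNg minus Con (adjusted p = 0.000933) and by 0.56 in DOX minus Con (adjusted p = 0.00114). The Usp15 call in DOX minus Con ended on removal of Con 2, Con 3, any DOX array or DOX_IFNg 2 (largest adjusted p 0.108). In DOX_IFNg minus Con, it ended on removal of DOX_IFNg 2 (adjusted p = 0.0520), and the Tbk1 call in DOX minus Con ended on removal of DOX 1 (adjusted p = 0.0557). The Gbas call ended on removal of any array other than DOX 2 and DOX_IFNg 1 in DOX_IFNg minus Con (largest adjusted p 0.132), and of Con 1, Con 2, DOX 1 or DOX 2 in DOX minus Con (largest adjusted p 0.0887). The Usp30 call ended on removal of any array other than DOX_IFNg 1 (largest adjusted p 0.144).

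Of 12 further cargo receptors, 2 were higher and 1 lower in DOX_IFNg minus Con. In either direction, 17.4% of all genes and 43.8% of those above the limit for dim probes were called there. In DOX minus Con, 3 receptors were higher and 1 lower, beside 15.6% and 39.5%. Ccpg1, Nufip1 and Calcoco2, among these receptors, lay under that limit. Tollip, a ubiquitin-binding adaptor, rose by 0.44 in DOX_IFNg minus Con (adjusted p = 0.0219) and by 0.54 in DOX minus Con (adjusted p = 0.00869). Ncoa4, the receptor that brings ferritin to the lysosome, rose by 0.31 in DOX_IFNg minus Con (adjusted p = 0.00253) and by 0.29 in DOX minus Con (adjusted p = 0.00408). Wdfy3, a large scaffold that works with p62, fell by 0.37 in DOX_IFNg minus Con (adjusted p = 0.000851) and by 0.38 in DOX minus Con (adjusted p = 0.000781). The Tollip call in DOX_IFNg minus Con ended on removal of Con 1, Con 2, DOX_IFNg 2 or DOX_IFNg 3 (largest adjusted p 0.0645).

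Regulators of autophagy held 10 of 23 genes higher and 2 lower in DOX_IFNg minus Con, and 9 higher and 1 lower in DOX minus Con. Trp53inp1, which binds LC3, rose by 1.54 (adjusted p = 0.000641) in DOX_IFNg minus Con and by 1.29 (adjusted p = 0.00170) in DOX minus Con. Ei24, an endoplasmic reticulum protein needed for autophagic degradation, rose by 1.50 in DOX_IFNg minus Con (adjusted p = 0.000110) and by 1.40 in DOX minus Con (adjusted p = 0.000160), and Dram1, a lysosomal membrane protein, by 1.26 in DOX_IFNg minus Con (adjusted p = 7.17e-05) and by 1.17 in DOX minus Con (adjusted p = 0.000117). Ddit4, an inhibitor of the growth kinase complex mTORC1, rose by 1.26 in DOX_IFNg minus Con (adjusted p = 0.00331) and by 1.51 in DOX minus Con (adjusted p = 0.00138).

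The following regulators were named after their values were seen. Sesn2 and Tsc2, both upstream inhibitors of mTORC1, rose by 0.91 (adjusted p = 0.000727) and 0.45 (adjusted p = 0.00635) in DOX_IFNg minus Con, and by 1.07 (adjusted p = 0.000340) and 0.61 (adjusted p = 0.00151) in DOX minus Con. Sesn1, a relative of Sesn2 with a mean level under the limit for dim probes, was not called. It lay at −0.23 in DOX_IFNg minus Con (adjusted p = 0.0904) and −0.24 in DOX minus Con (adjusted p = 0.0908). Without Con 1 it was called lower in both (−0.30 in each, adjusted p = 0.0451 and 0.0474). Sesn3, another relative and above the limit, had higher means in the treated groups, 7.39 in DOX_IFNg and 7.42 in DOX against 6.93 in Con. Prkaa2, which encodes an energy-sensing kinase (AMPK) subunit, rose by 0.72 in DOX_IFNg minus Con (adjusted p = 0.000963) and by 0.59 in DOX minus Con (adjusted p = 0.00307). Rptor, a subunit of mTORC1, fell by 0.22 in DOX_IFNg minus Con (adjusted p = 0.0203) and by 0.22 in DOX minus Con (adjusted p = 0.0237), and the kinase gene Mtor fell by 0.22 in DOX_IFNg minus Con (adjusted p = 0.0375) and lay at −0.17 in DOX minus Con (adjusted p = 0.102). Tfe3, a factor that binds the E-box, had mean log2 values of 5.30 ± 0.09 in DOX_IFNg, 5.34 ± 0.06 in DOX and 4.71 ± 0.03 in Con (SD, n = 3 each). It rose by 0.59 in DOX_IFNg minus Con (adjusted p = 0.000287) and by 0.63 in DOX minus Con (adjusted p = 0.000197). Its relative Tfeb averaged 4.53 ± 0.03 in DOX_IFNg, 4.54 ± 0.05 in DOX and 4.51 ± 0.06 in Con (SD, n = 3 each), under the limit for dim probes, and was not called in DOX_IFNg minus Con (adjusted p = 0.808) or DOX minus Con (adjusted p = 0.741).

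The smaller falls among regulators were less steady. The Rptor call ended on removal of Con 1, Con 2, DOX_IFNg 1 or DOX_IFNg 2 in DOX_IFNg minus Con (largest adjusted p 0.0725), and of Con 1, Con 2 or DOX 3 in DOX minus Con (largest adjusted p 0.0777). The Mtor call in DOX_IFNg minus Con ended on removal of 7 of the 9 arrays in turn, all except DOX 1 and 3 (largest adjusted p 0.119).

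**Figure D5:**
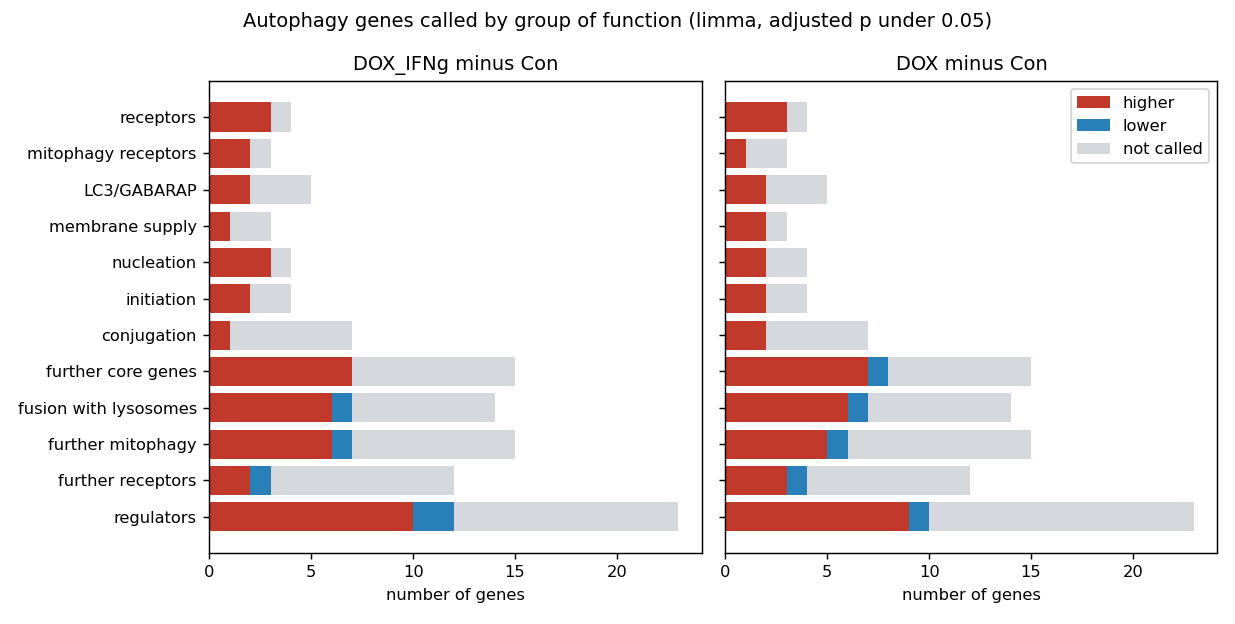
Number of genes called higher (red), lower (blue) or not called (grey) in each group of function, DOX_IFNg minus Con on the left and DOX minus Con on the right. No gene of the 7 groups that make up the list of 30 was called lower, whereas the further genes held 5 lower calls in each comparison.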

How the data were processed

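The authors deposited log2 expression values, 1 per transcript cluster and array. They were made with RMA, which corrects background, normalizes arrays and summarizes probes, per the submitters' processing notes, with a version not given in the sources used here. From the values themselves the scale was taken to be log2. They ran from 2.29 to 19.9 with array medians of 4.08 to 4.17 and were used as deposited. RMA compresses differences of dim probes. Of 65527 clusters, 30376 carried a single gene symbol in the platform annotation, 2117 carried several and 33034 were not listed. They gave 30050 genes, with the highest-mean cluster standing for a gene with several.

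Samples were grouped by title. Group means were fitted to all 9 arrays with limma 3.58.1 (lmFit and eBayes, R 4.3.3), which left 6 residual degrees of freedom, and the number of arrays limits the precision. Tests were two-sided, with Benjamini-Hochberg adjustment over all 30050 genes of a comparison, and every adjusted p is limma's. The fit was tested on simulated data. The median 95% interval of the 30 genes was ±0.20. The genes, lists and alternatives were chosen with earlier results of these data known. Values of all 9 arrays are given for genes called with a difference of at least 0.5 and for the LC3 and GABARAP family. Of the further lists, up to 3 called genes per comparison are named by size. Vmp1 was looked up and not analysed.

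Same-numbered arrays of different groups correlated between −0.16 and 0.36 in their deviations from the group means, so the numbers were not taken to pair arrays. Between Con and DOX_IFNg, arrays numbered 1 correlated at 0.36, those numbered 2 at −0.08 and those numbered 3 at 0.33. Con 3 with DOX_IFNg 1 gave −0.40, and Con 1 with DOX_IFNg 3 gave −0.31. What these arrays share was not tested. Promoter windows are RefSeq's for GRCm38.p6, matched for 25 of the 32 symbols, and motifs were searched with Python 3.11.15. Alternatives were quantile normalization, leaving out dim genes, fitting only the groups compared, blocks for replicate number and array set, each array set alone, the mean of a gene's clusters, trended and robust variances, and leaving out each array.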

Additional observations from a re-analysis of the deposited data

How the results depend on the processing

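The counts of called genes changed most within the array sets. For the 30 genes, the larger set alone gave 4 calls in DOX_IFNg minus Con and 8 in DOX minus Con, against 14 in each with all arrays, while the share of all genes called was 7.43% and 8.18%, against 17.4% and 15.6% with all arrays. The smaller set alone gave 0 in DOX_IFNg minus Con, as it did for all genes. For the 79 further genes, counting both directions, the larger set gave 12 and 15 against 36 and 35, and the smaller set gave 0 in DOX_IFNg minus Con. These fits hold fewer arrays. With 1 array left out at a time, the 30 genes gave 9 to 14 calls in DOX_IFNg minus Con, with 9 without Con replicate 2 and 9 without DOX_IFNg replicate 3, and 11 to 15 in DOX minus Con, while the share of all genes called ran from 12.5% to 16.6% and from 11.1% to 15.2% in the same comparisons. The further genes gave 23 to 34, with 23 without DOX_IFNg replicate 2, and 22 to 36, with 22 without DOX replicate 1. In DOX_IFNg minus DOX every one of the 17 alternatives run there gave 0 calls in both sets of genes. Among the 14 called genes of each comparison with Con, 4 (Uvrag, Atg3, Sqstm1 and Nbr1) were called in DOX_IFNg minus Con under the 17 alternatives other than the smaller set alone, which called none of them. In DOX minus Con, which the smaller set cannot give, 7 were called under all 17 (these 4 with Wipi1, Gabarap and Calcoco1). With the replicate number as a block, the 30 genes gave 12 calls in DOX_IFNg minus Con, 15 in DOX minus Con and 0 in DOX_IFNg minus DOX. The further genes gave 33, 33 and 0 in the same order, and the shares of all genes called were 16.6%, 14.9% and 0%. The numbers were not taken to pair the arrays. With 3 arrays a group, the intervals given beside the values bound what could be seen, and genes under the limit for dim probes (Map1lc3a, Map1lc3b, Fundc1) have the least signal over background.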
